A study of Bos taurus with 6 samples.

Results

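Ribosome biogenesis genes encode the proteins that transcribe ribosomal RNA, modify and cut it, and assemble it with ribosomal proteins in the nucleolus. They were described here in bovine late morulae as a list of 50 genes chosen by symbol. Rows with those symbols were found for 48 of the 50, and all 48 had a mean scaled count of at least 10 over the 6 libraries, the minimum for testing. DDX18 and IMP3 were not analysed here. The smallest mean count among them was 311 (NIP7), far from that minimum. They stand among 12101 tested rows, and their values made up 0.854% to 0.949% of the named total of a library.

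Polyadenylated RNA was sequenced from embryos of Bos taurus fertilized in vitro and collected as late morulae on day 6. All embryos were injected with a small interfering RNA, which was nonspecific in the control and directed against NOTCH1 or against RBPJ in the 2 knockdown groups. NOTCH1 is a receptor of the NOTCH pathway, and RBPJ is the DNA-binding protein through which NOTCH receptors act on transcription. Each group had 2 libraries of 15 pooled embryos, and each pool received the same amount of GFP and RFP messenger RNA before extraction. The comparisons ask whether transcripts of the ribosome assembly pathway differ when either NOTCH component is reduced.

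Making ribosomes starts when RNA polymerase I copies the ribosomal DNA into one long precursor. Small nucleolar ribonucleoproteins then guide chemical modification of the precursor, while the small-subunit processome and the large-subunit assembly factors fold and cut it. In early mammalian embryos nucleoli take up this work as the embryonic genome becomes active, so that by the morula stage the embryo makes its own ribosomes.

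The libraries bore embryonic transcripts. Scaled totals ran from 10365695 to 10815554, but scaling by itself brings totals together, so they do not show library size. Reads per library were estimated at about 9670000 to 13600000, the largest in replicate 1 of the RBPJ knockdown. RBPJ stood at 447 and 391 in the control and at 121 and 94.5 in its own knockdown (log2 fold change -1.96, limma adjusted p = 0.00149). NOTCH1 stood at 69.6 and 140 in control pools and at 48.0 and 49.5 in NOTCH1-knockdown pools. Both libraries of its own knockdown were thus below both controls, with a mean of 48.8 against 105. This difference did not reach an adjusted p below 0.05 (limma adjusted p = 0.637), unlike that of RBPJ. In RBPJ-knockdown pools NOTCH1 stood at 50.0 and 125, so that replicate 1 was as low as the NOTCH1 knockdown. The pluripotency factor POU5F1 had a mean of 11926 and the epithelial cadherin CDH1 one of 11256, while PTPRC, a leukocyte marker, had a mean of 4.49. Of 11 cumulus and granulosa markers, 9 were measured, none at 0 in all libraries, with sums of 684 to 829 in the control, 690 to 769 in the NOTCH1 knockdown and 776 to 780 in the RBPJ knockdown. The corresponding sums over 6 blood and immune markers, none at 0 in all libraries, were 1176 to 1491, 1192 to 1583 and 1218 to 1527, mostly from the globin gene HBA.

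None of the 48 members passed the threshold in any of the 3 comparisons, which was a Benjamini-Hochberg adjusted p below 0.05 from limma over all tested rows. In the NOTCH1 knockdown against the control the share of all rows that passed was 0%, with 0 of 48 members and 7.28% of all rows at an unadjusted p below 0.05. That 0 became 4 of 48 under quantile normalization, beside 832 of all 12101 rows. In the RBPJ knockdown against the control 0.00826% of all rows passed, a single row, and 2 of 48 members (NOP56 and UTP4) had an unadjusted p below 0.05, beside 4.33% of all rows. Without a variance trend in the fit those 2 became 0, beside 537 of all 12101 rows. Between the knockdowns 0.00826% of all rows passed as well, and 0 members reached an unadjusted p below 0.05, beside 3.64% of all rows. The smallest adjusted p over the members was 0.687 in the NOTCH1 knockdown, 0.983 in the RBPJ knockdown and 0.999 between the 2.

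The members lay slightly lower in both knockdowns by sign. In the NOTCH1 knockdown 35 of 48 had a negative log2 fold change, beside 48.9% of all rows, and the median was -0.06 against 0.01 over all rows. In the RBPJ knockdown 41 of 48 were negative, beside 50.3% of all rows, with a median of -0.09 against -0.0018. Both comparisons use the same control libraries. Over the omission of each library compared, 26 to 35 members were negative in the NOTCH1 knockdown and 31 to 43 in the RBPJ knockdown. Both counts were smallest without replicate 2 of the control, where the medians over all rows were 0.0021 and -0.01. No test was made of the list as a whole.

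**Figure D1:**
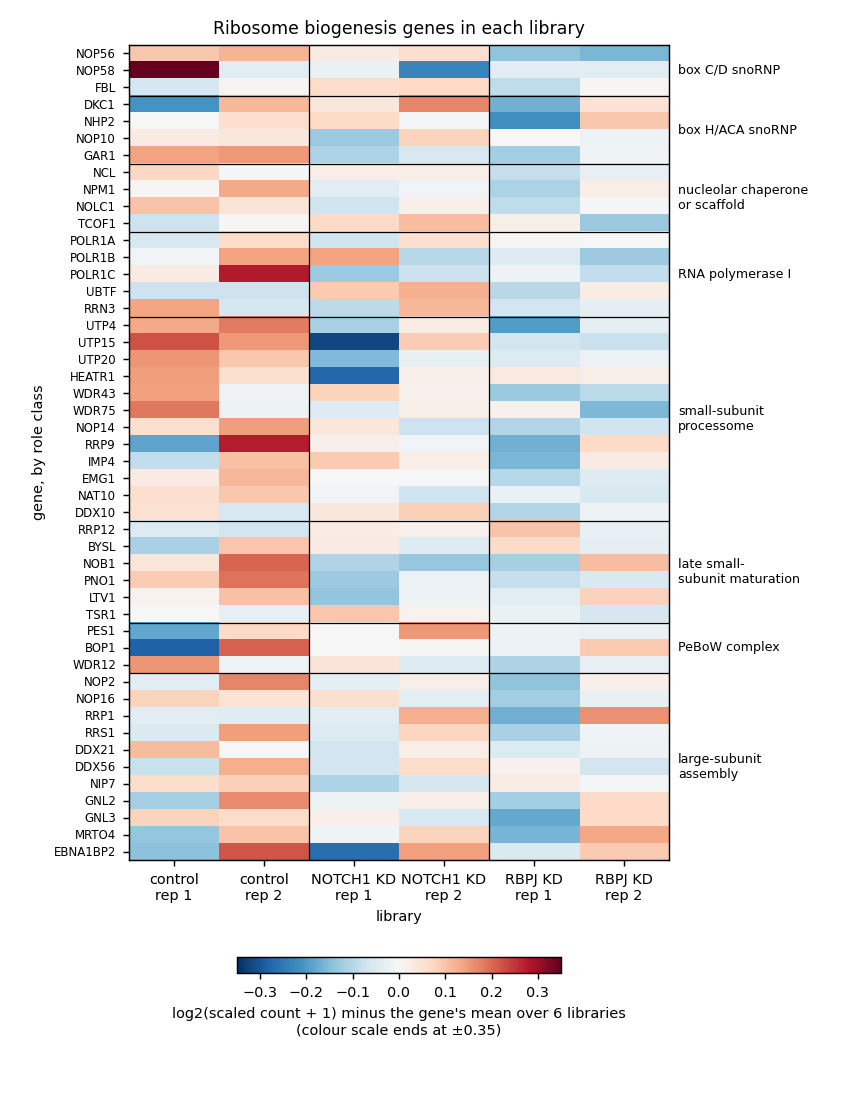
Level of each of the 48 genes in each of the 6 libraries, as log2(scaled count + 1) minus the mean of that gene over the libraries (KD, knockdown; rep, replicate; red higher, blue lower). Replicate 2 of the control is the reddest column, with a median over the genes of 0.10, and replicate 1 of the RBPJ knockdown the bluest, with -0.09.

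With each gene centred on its own mean of the 6 libraries, the members' median log2 level was 0.03 and 0.10 in the control, -0.02 and 0.02 in the NOTCH1 knockdown, and -0.09 and -0.02 in the RBPJ knockdown. The groups did not overlap between either knockdown and the control on this measure, but replicate 2 of the NOTCH1 knockdown lay only just below replicate 1 of the control. Replicate 2 exceeded replicate 1 for 30 of 48 members in the control, 32 in the NOTCH1 knockdown and 31 in the RBPJ knockdown. The median log2 differences were 0.05, 0.04 and 0.06. Over all rows it did so for 6048, 5821 and 6130 of 12101, with medians of -9.9e-05, -0.01 and 0.0033. In all 3 groups alike, replicate 2 was higher for 14 members and replicate 1 for 3, beside 18.2% and 19.5% of all rows. The members' median difference from a control library was negative in every pairing of libraries, from -0.11 to -0.03 for the NOTCH1 knockdown and from -0.14 to -0.06 for the RBPJ knockdown.

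Library by library, the RBPJ knockdown showed the most even shift in its replicate 1. That library was below replicate 1 of the control for 38 of 48 members and below replicate 2 of the control for 43. Replicate 2 of the RBPJ knockdown was below replicate 1 of the control for 27 members and below replicate 2 for 40. For the NOTCH1 knockdown the 4 pairings gave 27 to 34 of 48 members below the control library. Over all rows the same 8 pairings gave 48.2% to 50.8%. Without replicate 2 of the RBPJ knockdown the RBPJ median was -0.14, and it was -0.06 without replicate 1 of that group or without replicate 2 of the control.

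Non-overlap of the libraries was counted next, that is, both libraries of a group on the same side of both libraries of the other. In the NOTCH1 knockdown 17 of 48 members were lower in this sense, beside 17.2% of all rows, and 6 were higher, beside 18.6%. In the RBPJ knockdown 20 of 48 were lower, beside 16.7% of all rows, and 1 (RRP12) was higher, beside 15.3%. The higher members in the NOTCH1 knockdown were FBL, TCOF1, UBTF, RRP12, TSR1 and RRP1, named after their values were seen. Under quantile normalization 3 members were higher, beside 17.3% of all rows. The balance of lower and higher counts differed with the control library used: with replicate 1 alone as reference, 26 members were lower and 9 higher in the RBPJ knockdown, beside 36.6% and 35.2% of all rows, and 25 were lower and 17 higher in the NOTCH1 knockdown, beside 35.6% and 36.9%. Without replicate 1 of the RBPJ knockdown 24 members were lower and 5 higher, beside 32.9% and 32.0%. Leaving out replicate 1 of the control or replicate 2 of the RBPJ knockdown instead gave 36 and 35 lower members, beside 33.5% and 31.5% of all rows, since fewer libraries overlap less often.

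**Figure D2:**
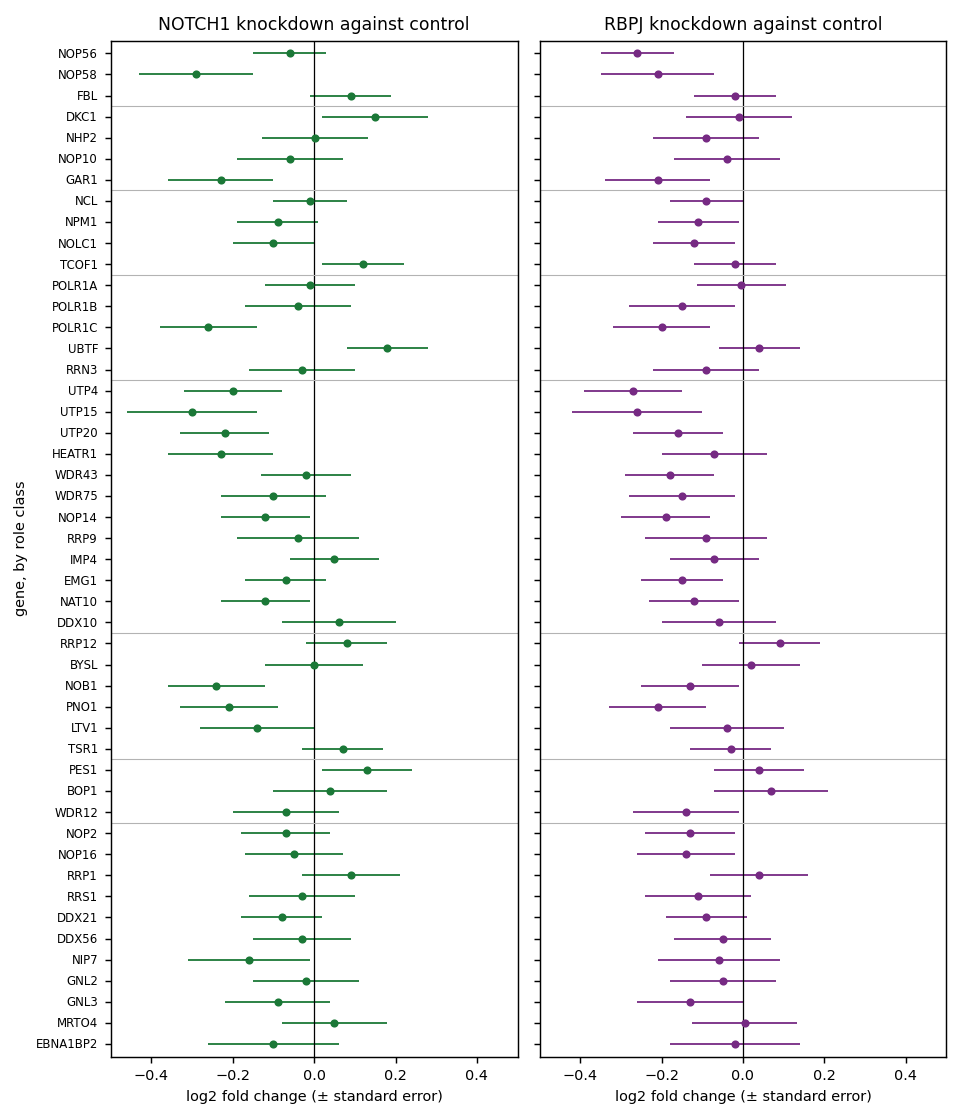
Log2 fold change of each gene in the NOTCH1 knockdown (left) and the RBPJ knockdown (right) against the control, with the limma standard error as the bar and genes ordered by role. Points lie between -0.30 (UTP15) and 0.18 (UBTF) on the left and between -0.27 (UTP4) and 0.09 (RRP12) on the right.

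Of the 5 RNA polymerase I genes, 4 were lower by sign in each knockdown, all but UBTF. POLR1C, a subunit that polymerase I shares with polymerase III, had scaled counts of 940 and 1117 in control pools, 843 and 874 in NOTCH1-knockdown pools, and 910 and 868 in RBPJ-knockdown pools. All knockdown libraries were below both controls, with log2 fold changes of -0.26 (standard error 0.12, limma adjusted p = 0.712) and -0.20 (standard error 0.12, limma adjusted p = 0.983). Without replicate 2 of the control these were -0.13 and -0.08. UBTF, the factor that opens the ribosomal DNA for polymerase I, stood at 1563 and 1562 in control pools, 1749 and 1790 in NOTCH1-knockdown pools, and 1535 and 1672 in RBPJ-knockdown pools. It was the member with the most positive value in the NOTCH1 knockdown, at 0.18 (standard error 0.10, limma adjusted p = 0.763), and the RBPJ libraries lay on both sides of the control.

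Of the other polymerase I genes, only POLR1B had groups that did not overlap, in the RBPJ knockdown against the control. POLR1A, the largest subunit, ranged from 1484 to 1627 over the 6 libraries with all groups overlapping. POLR1B, the second largest, had 834 and 788 in the RBPJ knockdown, below 855 and 950 in the control, at a log2 fold change of -0.15 (limma adjusted p = 0.983). RRN3, which recruits the polymerase to the promoter, ranged from 692 to 812 with all groups overlapping.

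Box C/D small nucleolar ribonucleoproteins, which guide methylation of ribosomal RNA, held the member ranked first by p against the control in the RBPJ group. NOP56, one of their core proteins, stood at 3479 and 3537 in control pools, 3322 and 3387 in NOTCH1-knockdown pools, and 2951 and 2917 in RBPJ-knockdown pools. Its replicates were close together, and the 3 groups did not overlap. The log2 fold change was -0.26 in the RBPJ knockdown (standard error 0.09, limma unadjusted p = 0.0184, adjusted p = 0.983), with a 95% interval from -0.46 to -0.05. It was -0.06 in the NOTCH1 knockdown (limma adjusted p = 0.920), and -0.19 between the knockdowns, where the interval ran from -0.40 to 0.01. Over the omission of each library, the value against the control in the RBPJ knockdown stayed between -0.27 and -0.25.

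NOP58, the partner of NOP56, owed its value to one library. It had 2600 and 1954 in control pools, 1978 and 1711 in NOTCH1-knockdown pools, and 1957 and 1953 in RBPJ-knockdown pools, so that replicate 1 of the control stood above all others. The log2 fold change was -0.29 in the NOTCH1 knockdown (standard error 0.14, limma adjusted p = 0.687), the smallest p of any member there, and -0.21 in the RBPJ knockdown. Without replicate 1 of the control these were -0.09 and 0.00084. FBL (fibrillarin), the methyltransferase of the complex, had 3616 and 3798 in control pools, 3942 and 3955 in NOTCH1-knockdown pools, and 3544 and 3783 in RBPJ-knockdown pools. It was thus higher by sign in the NOTCH1 knockdown without overlap, at 0.09, while NOP56 and NOP58 were lower.

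Box H/ACA small nucleolar ribonucleoproteins, which guide pseudouridylation and also belong to telomerase, had 1 of 4 members lower without overlap in the NOTCH1 knockdown and 2 of 4 in the RBPJ knockdown, beside 17.2% and 16.7% of all rows, counts too small to be read against those shares. GAR1 stood at 652 and 657 in control pools, 548 and 568 in NOTCH1-knockdown pools, and 544 and 586 in RBPJ-knockdown pools. Its control replicates were nearly equal, and every knockdown library was lower, with log2 fold changes of -0.23 and -0.21 (standard error 0.13 for both, limma adjusted p = 0.756 and 0.983). DKC1 (dyskerin), the pseudouridine synthase, had 2891 and 3628 in control pools, 3438 and 3766 in NOTCH1-knockdown pools, and 2974 and 3465 in RBPJ-knockdown pools. Its replicate 2 was the higher one in every group, and all groups overlapped. NHP2 ranged from 963 to 1192, with both extremes in the RBPJ knockdown, and NOP10 from 573 to 661, with both extremes in the NOTCH1 knockdown.

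**Figure D3:**
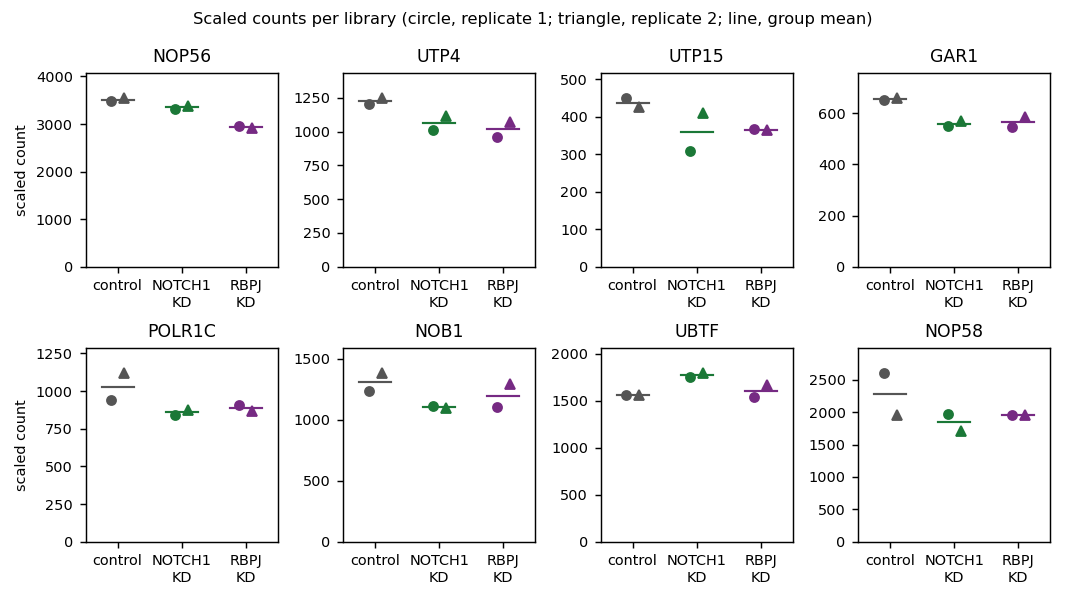
Scaled counts of 8 genes in every library (circle, replicate 1; triangle, replicate 2; line, group mean; axes start at 0; KD, knockdown). NOP56 is lowest in the RBPJ knockdown, at 2951 and 2917, GAR1 and UTP4 are lower in every knockdown library than in both controls, and the NOP58 difference comes from the control library at 2600.

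Transcripts of the 4 nucleolar chaperones and scaffolds had median log2 fold changes of -0.05 and -0.10 in the NOTCH1 and RBPJ knockdowns. Those of all 48 members were -0.06 and -0.09. NCL (nucleolin), which binds the ribosomal RNA precursor, had 14966 and 14171 in control pools, 14473 and 14463 in NOTCH1-knockdown pools, and 13431 and 13962 in RBPJ-knockdown pools. The RBPJ libraries were the lowest, at a log2 fold change of -0.09 (95% interval from -0.29 to 0.11). NPM1 (nucleophosmin), a chaperone that forms the outer layer of the nucleolus, had log2 fold changes of -0.09 and -0.11 in the NOTCH1 and RBPJ knockdowns. NOLC1, a scaffold that carries small nucleolar ribonucleoproteins, stood at 4027 and 3878 in control pools, 3580 and 3805 in NOTCH1-knockdown pools, and 3534 and 3751 in RBPJ-knockdown pools, so that both knockdowns were below both controls by sign. TCOF1 (treacle), which links polymerase I transcription to processing, had 2288 and 2414 in control pools, 2527 and 2593 in NOTCH1-knockdown pools, and 2442 and 2201 in RBPJ-knockdown pools.

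The small-subunit processome, the large assembly that forms on the new precursor and prepares the small-subunit RNA, had mostly members lower by sign. Of its 12 measured members, 10 were lower in the NOTCH1 knockdown and 12 in the RBPJ knockdown, with medians of -0.11 and -0.15. Libraries did not overlap for 7 of the 12 and 8 of the 12, in each case lower, beside 17.2% and 16.7% of all rows. It is the largest of the 8 classes, and its difference from the others was not tested. In the RBPJ knockdown all measured members of the box C/D, box H/ACA and chaperone classes were lower by sign as well.

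UTP4, UTP15, HEATR1, WDR43 and WDR75 belong to the subcomplex that binds the precursor first. UTP4 had 1203 and 1245 in control pools, 1014 and 1116 in NOTCH1-knockdown pools, and 958 and 1073 in RBPJ-knockdown pools. Every knockdown library was below both controls, with log2 fold changes of -0.20 (standard error 0.12, limma adjusted p = 0.763) and -0.27 (standard error 0.12, limma unadjusted p = 0.0387, adjusted p = 0.983). The former was -0.13 without replicate 1 of the NOTCH1 knockdown. The latter was -0.19 without replicate 1 of the RBPJ knockdown and -0.35 without its replicate 2. UTP15 had 449 and 427 in control pools, 308 and 409 in NOTCH1-knockdown pools, and 367 and 364 in RBPJ-knockdown pools. Its log2 fold change of -0.30 in the NOTCH1 knockdown, the most negative of any member, was -0.10 without replicate 1 of that group, and the value in the RBPJ knockdown was -0.26. HEATR1 was also low in replicate 1 of the NOTCH1 knockdown, where its log2 fold change of -0.23 became -0.08 without that library. It had 1143 and 1074 in control pools, 854 and 1045 in NOTCH1-knockdown pools, and 1057 and 1048 in RBPJ-knockdown pools.

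WDR43 had 1760 and 1581 in control pools, 1684 and 1612 in NOTCH1-knockdown pools, and 1457 and 1492 in RBPJ-knockdown pools. It was lower without overlap in the RBPJ knockdown but not in the NOTCH1 knockdown, at -0.18 (limma adjusted p = 0.983), or -0.10 without replicate 1 of the control, and the difference between the knockdowns was -0.16 (standard error 0.11, limma adjusted p = 0.999). WDR75 was lower by sign at -0.10 and -0.15, with overlapping libraries.

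Other processome members included enzymes and structural proteins. UTP20, a very large scaffold protein, stood at 1474 and 1414 in control pools, 1188 and 1301 in NOTCH1-knockdown pools, and 1280 and 1304 in RBPJ-knockdown pools. NOP14 had 1754 and 1867 in control pools, 1733 and 1604 in NOTCH1-knockdown pools, and 1570 and 1608 in RBPJ-knockdown pools. EMG1, a methyltransferase of the small-subunit RNA, had 2702 and 2870 in control pools, 2642 and 2647 in NOTCH1-knockdown pools, and 2470 and 2567 in RBPJ-knockdown pools. All 3 were below both controls in each knockdown library, with log2 fold changes in the RBPJ knockdown of -0.16, -0.19 and -0.15. NAT10, an RNA acetyltransferase, had a log2 fold change of -0.12 in both knockdowns. RRP9 and IMP4, proteins of the U3 particle, overlapped in all groups, and RRP9 had far-apart control libraries, at 978 and 1344. DDX10, a helicase, was positive in the NOTCH1 knockdown at 0.06 and negative in the RBPJ knockdown at -0.06.

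Factors that mature the small subunit after the processome went both ways. NOB1, the nuclease that makes the final cut of the small-subunit RNA, had 1234 and 1381 in control pools, 1114 and 1094 in NOTCH1-knockdown pools, and 1105 and 1291 in RBPJ-knockdown pools. Its log2 fold change was -0.24 in the NOTCH1 knockdown (standard error 0.12, limma adjusted p = 0.717), without overlap, and -0.13 in the RBPJ knockdown, with overlap. PNO1, the binding partner of NOB1, stood at 778 and 835 in control pools, 670 and 721 in NOTCH1-knockdown pools, and 692 and 705 in RBPJ-knockdown pools, at -0.21 in both comparisons (limma adjusted p = 0.761 and 0.983). RRP12, which takes part in export of the subunit, was the one member higher in both knockdowns without overlap, with 1839 and 1820 in control pools, 1935 and 1922 in NOTCH1-knockdown pools, and 2037 and 1867 in RBPJ-knockdown pools. LTV1 and TSR1, assembly factors of the maturing subunit, had log2 fold changes in the NOTCH1 knockdown of -0.14 and 0.07. BYSL (bystin) had -0.00025 there and 0.02 in the RBPJ knockdown.

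The PeBoW complex of PES1, BOP1 and WDR12, which is needed for processing of the large-subunit RNA, was dominated by the control replicates. BOP1 had 1785 and 2506 in the control, the widest replicate difference of any member upward (0.49 on the log2 scale), and 2173 and 2178 in the NOTCH1 knockdown and 2141 and 2313 in the RBPJ knockdown, all inside the control range. PES1 had 4940 and 5883 in control pools, 5612 and 6227 in NOTCH1-knockdown pools, and 5542 and 5522 in RBPJ-knockdown pools. WDR12 stood at 646 and 574 in control pools and at 538 and 568 in RBPJ-knockdown pools. Its log2 fold change there was -0.14, and the NOTCH1 knockdown overlapped the control.

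Large-subunit assembly factors lay mostly close to the control. Of 11 measured members, 9 were lower by sign in each knockdown, with medians of -0.05 and -0.06. DDX21, a helicase of the nucleolus, had 2710 and 2510 in control pools, 2399 and 2552 in NOTCH1-knockdown pools, and 2432 and 2479 in RBPJ-knockdown pools. NOP16 stood at 776 and 760 in control pools, 764 and 717 in NOTCH1-knockdown pools, and 675 and 721 in RBPJ-knockdown pools, at -0.14 in the latter (standard error 0.12, limma adjusted p = 0.983). Both RBPJ libraries were below both controls for each of these genes. NIP7 had 324 and 329 in control pools, 288 and 298 in NOTCH1-knockdown pools, and 316 and 309 in RBPJ-knockdown pools, tight values that differed by -0.16 and -0.06. The log2 fold changes of NOP2, RRP1, RRS1, DDX56, GNL2, GNL3 (nucleostemin), MRTO4 and EBNA1BP2 lay between -0.10 and 0.09 in the NOTCH1 knockdown and between -0.13 and 0.04 in the RBPJ knockdown. EBNA1BP2 varied widely within groups, at 955 and 1229 in control pools and 879 and 1166 in NOTCH1-knockdown pools.

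**Figure D4:**
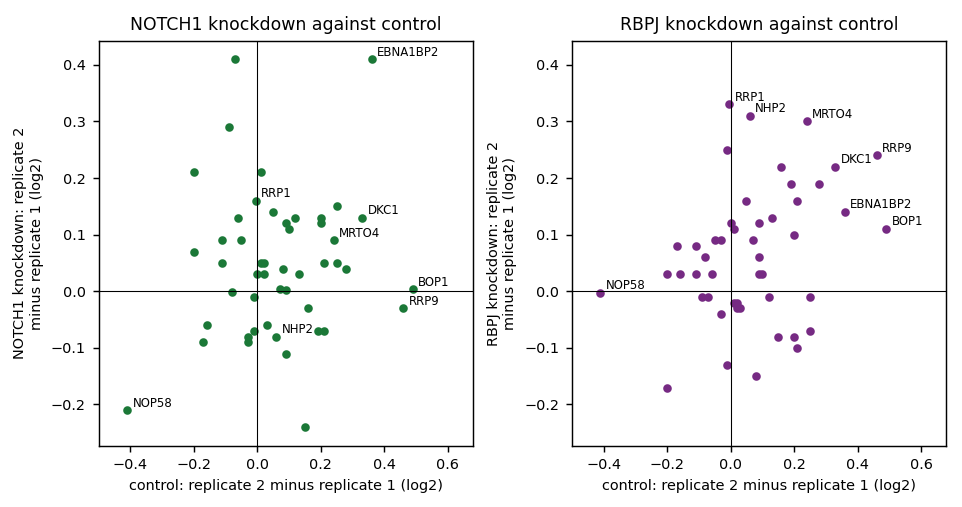
Difference between replicate 2 and replicate 1 (log2) of each gene in the control (horizontal axis) and in the NOTCH1 knockdown (left) or RBPJ knockdown (right). Control differences run from -0.41 (NOP58) to 0.49 (BOP1), wider than the group differences of these genes.

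The direct comparison of the knockdowns gave 31 of 48 members lower by sign in the RBPJ knockdown, beside 52.7% of all rows, with a median log2 difference of -0.05 against -0.01 over all rows. Libraries were lower without overlap for 10 members, beside 17.5% of all rows, and higher for 2 (HEATR1 and NIP7), beside 15.5%. UBTF and TCOF1, both higher by sign in the NOTCH1 knockdown, differed by -0.14 each (limma adjusted p = 0.999), and DKC1 by -0.16. FBL, IMP4 and TSR1 differed by -0.11, -0.12 and -0.10, and HEATR1 and NOB1 by 0.16 and 0.11. Single libraries carried several of these: HEATR1 was 0.01 without replicate 1 of the NOTCH1 knockdown and NOB1 0.0012 without replicate 2 of the RBPJ knockdown. Without replicate 1 of the RBPJ knockdown DKC1 was -0.05, IMP4 -0.03, FBL -0.06 and UBTF -0.08, and without its replicate 2 TCOF1 was -0.07. Without replicate 1 of the RBPJ knockdown the median was 0.0029 and 23 of 48 members were lower, so the direction of this difference rested on that library. Without it 13 members were lower and 14 higher without overlap, beside 35.6% and 33.7% of all rows.

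The precision of the members limits what their failure to pass can say. Half-widths of the 95% limma intervals, unadjusted for the number of genes, ran from 0.20 to 0.35 on the log2 scale, with a median of 0.27. A 1.5-fold change, 0.58 on that scale, lay outside the interval in both directions for 46 of 48 members in the NOTCH1 knockdown, 47 in the RBPJ knockdown and 48 between the knockdowns. The exceptions were NOP58 and UTP15 in the NOTCH1 knockdown, whose intervals reached -0.59 and -0.66, and UTP15 in the RBPJ knockdown, at -0.61. Differences of the size seen in the medians were not detectable for single genes with 2 libraries a group.

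Beyond the 48 members, 116 of 123 further symbols of ribosome biogenesis genes were tested and 0 passed in any comparison (limma). The 123 include older and newer symbols of the same gene, so most symbols without a row do not stand for an untested gene. By sign 75 of 116 were lower in the NOTCH1 knockdown and 84 in the RBPJ knockdown, beside 48.9% and 50.3% of all rows, with medians of -0.04 and -0.05. At an unadjusted p below 0.05 there were 3 in each, all lower, and 0 between the knockdowns, beside 7.28%, 4.33% and 3.64% of all rows. NMD3, the adaptor for export of the large subunit, had 492 and 453 in control pools, 371 and 366 in NOTCH1-knockdown pools, and 390 and 373 in RBPJ-knockdown pools. Its log2 fold changes were -0.36 (limma adjusted p = 0.626) and -0.31 (limma adjusted p = 0.983), more negative than those of any of the 48 members. POLR1D, a subunit shared by polymerases I and III like POLR1C, had 647 and 605 in control pools and 520 and 449 in NOTCH1-knockdown pools, at -0.37. AATF and RPF1 stood at -0.27 and -0.25 there.

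DIMT1, a methyltransferase of the small-subunit RNA, had 398 and 382 in control pools and 259 and 309 in RBPJ-knockdown pools, at -0.46 (limma adjusted p = 0.983), and EXOSC7, an exosome subunit, and NOL9 had -0.38 and -0.23. Between the knockdowns the smallest p values were those of PA2G4, DHX37, TSR2 and EXOSC7, at -0.21, -0.21, 0.26 and -0.22. Ribosomal protein genes, whose products the pathway assembles, had medians of -0.07 and -0.15 over 75 genes in the NOTCH1 and RBPJ knockdowns. In the NOTCH1 knockdown 19 of the 75 were lower and 8 higher without overlap, beside 17.2% and 18.6% of all rows. In the RBPJ knockdown 54 were lower and 0 higher, beside 16.7% and 15.3%.

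Several other measures differed by sign between a knockdown and the control. MYC, a transcription factor known to drive ribosome biogenesis genes, stood at 93.0 and 115 in control pools, 61.2 and 46.5 in NOTCH1-knockdown pools, and 137 and 102 in RBPJ-knockdown pools, with log2 fold changes of -0.94 and 0.19 (limma adjusted p = 0.465 and 0.995). Both MYC libraries of the NOTCH1 knockdown were below both controls, and those of the RBPJ knockdown overlapped the control. The summed level of 14 oocyte and maternal transcripts was 983 and 1191 in control pools, 458 and 811 in NOTCH1-knockdown pools, and 664 and 838 in RBPJ-knockdown pools, with none at 0 in all libraries. Markers of the outer cells, the future trophectoderm, stood above both controls in the NOTCH1 knockdown for GATA3 (577 and 515 against 1018 and 856), CDX2 (654 and 744 against 976 and 832) and KRT8 (11997 and 10630 against 15897 and 12502). Their log2 fold changes were 0.78, 0.37 and 0.32, and none passed the limma threshold. Of all rows, 18.6% were higher without overlap in that comparison. The pluripotency factor POU5F1 was so as well (10911 and 11593 against 12942 and 12817), while NANOG and CDH1 overlapped. KRT18 overlapped, with 9355 and 6298 against 11454 and 8816. In the RBPJ knockdown GATA3, CDX2, KRT8 and KRT18 all overlapped the control, with log2 fold changes of -0.02, -0.10, -0.03 and 0.01. There KRT8 ranged from 7578 in replicate 2 to 16107 in replicate 1, and GATA3 from 391 to 737. The part of these measures in the members' values was not tested, and in pooled embryos fewer cells of a type and less RNA per cell cannot be told apart.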

How the data were processed

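The values are one signal per gene and library that the authors deposited, judged from the values to be read counts divided by a scaling factor. The build ARS-UCD1.2 and the tools DESeq2 and Salmon 0.14.1 are named, without their roles, per the submitters' processing notes; the annotation is not given in the sources used here. Low values were mostly whole multiples of one step (83.6% to 85% within 0.1), too few to recover reads; totals divided by the steps give about 9670000 to 13600000 reads per library. The 2551 of 17922 rows without a gene name (6.2% to 7.22% of a library) were left out, and 57 rows repeating a symbol stayed as separate rows. Reads of near-identical or overlapping genes cannot be separated. The spike-in was not analysed here.

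Rows with a mean of at least 10 were tested as log2(value + 1) with limma 3.58.1 in R 4.3.3, with group means over all 6 libraries (3 residual degrees of freedom), trended variance and Benjamini-Hochberg adjustment. Fold changes on this scale understate those of low genes. The fit was tested on simulated data. Members and lists were chosen with earlier results of these data known. Values are given for the 10 members with the smallest p in each comparison, and in each role class for the most abundant member and that with the smallest p against the control; of further biogenesis genes, for the 4 with the smallest p. Values are not per length, so the most abundant member by count need not have the most transcripts. The labels do not state separate collections for the replicates; each p-value therefore reflects only how far these pools differ, which may be technical. Alternatives were other pseudocounts (0.1 and 10), no filter or a mean of at least 100, median-of-ratios and quantile scaling, other variance settings, an adjusted p below 0.1, leaving out one library at a time, and a replicate block. Figures used matplotlib 3.10.9 in Python 3.11.15.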

Additional observations from a re-analysis of the deposited data

How the results depend on the processing

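No member passed under any alternative tried, including the omission of each library, and the smallest adjusted p of a named member was 0.195. Of 480 recomputed log2 fold changes (30 pairs of a named member and a comparison), 479 kept their direction. Many of the 480 could not move, so this count overstates how far the direction was tried. Filters, variance settings, the replicate block and fitting only the groups compared leave a fold change as it was. So does omitting a library outside the comparison. NOP58 in the RBPJ knockdown ran from -0.41 to 0.00084 over omitted libraries, the latter without replicate 1 of the control. The members' median in the RBPJ knockdown ran from -0.14 to -0.06 over omitted libraries, and between the knockdowns from -0.08 to 0.0029. Over all rows, the replicate block called 135 genes in the NOTCH1 knockdown, 12 in the RBPJ knockdown and 15 between them, with 0 members in each. Without the variance trend 0 rows passed in the RBPJ knockdown or between the knockdowns. Omitting libraries gave 0 to 1, 1 to 3 and 0 to 3 rows in the 3 comparisons; the cause was not tested. Replicate 2 minus replicate 1 correlated across all rows at r = 0.15 to 0.21 between groups, and across the 48 members at r = 0.12 (control and NOTCH1 knockdown), 0.31 (control and RBPJ knockdown) and 0.03 (both knockdowns); same-numbered libraries may share no more than a number. Counts of members without overlap under other scalings and omissions were added after seeing the data. Median-of-ratios and quantile scaling gave 18 and 20 lower of 48 in the NOTCH1 knockdown, beside 17.9% and 18.5% of all rows. In the RBPJ knockdown they gave 20 and 20, beside 16.2% and 17.2%. Between the knockdowns they gave 9 and 6 against 10, beside 16.3% and 16.5%. Higher members were 5 and 3 in the NOTCH1 knockdown against 6, beside 18.1% and 17.3% of all rows. In the RBPJ knockdown they were 1 and 0 against 1, beside 15.9% and 14.6%. Between the knockdowns they were 3 and 5 against 2, beside 16.5% and 16%. Members at an unadjusted p below 0.05 were 4, 2 and 1 of 48 under the replicate block, beside 1473, 1038 and 875 of all 12101 rows. With only the groups compared in the fit they were 0, 1 and 1 of 48, beside 831, 428 and 573 rows.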
